A study of Mus musculus with 4 samples.

Results

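The 9 clustered histone genes that passed the expression filter of the deposited comparison, among its 11536 genes, are described here. The cells are CD4+CD8+ double-positive (DP) thymocytes with CD4-Cre deletion of Uqcrfs1, the gene of the Rieske protein of mitochondrial complex III, and controls. The 9 genes were taken by name, as all genes whose symbols begin with Hist1h, Hist2h, Hist3h or Hist4h in that comparison. Its filter on low values used all 4 libraries, and 2 of the 9, Hist1h4d and Hist1h2bj, passed it only through their WT levels. Hist1h4i, Hist1h4d, Hist1h2bc, Hist1h2be, Hist1h2bj and Hist1h1c lie in the Hist1 cluster on chromosome 13, Hist2h2be lies in the Hist2 cluster on chromosome 3, and Hist3h2a and Hist3h2ba lie in the Hist3 cluster on chromosome 11. The set holds 5 H2B genes, 2 H4 genes, 1 H2A gene, 1 H1 gene and no H3 gene. No gene of the Hist4 locus is in the set. H1f0, H2afx, H2afy, H2afz, H3f3a and H3f3b, 6 histone genes outside these clusters, serve as a contrast.

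RNA was sequenced from sorted thymocytes of 2 Uqcrfs1 fl/fl; CD4-Cre+ mice (KO) and 2 control mice (WT), all on the C57BL/6 strain. Uqcrfs1 encodes the Rieske iron-sulfur subunit of complex III, and the CD4-Cre transgene drives deletion from about the DP stage on, so that the protein and RNA made before it can persist. The controls carry the genotype WT in the sample labels, whereas the design text of the series calls them heterozygous littermates, and no source used here says whether they carry Cre, or gives age or sex.

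Replication-dependent histone genes supply the core histones H2A, H2B, H3 and H4 and the linker histone H1 that package newly copied DNA, and their mRNAs accumulate in S phase. These mRNAs normally end just after a conserved 3′ stem-loop bound by SLBP, are cut there with the help of the U7 snRNP and carry no poly(A) tail. Some clustered genes, Hist1h1c and Hist2h2be among them, also make polyadenylated RNA in differentiated cells, and a protocol that selects poly(A) RNA sees mainly that form. No source used here says whether the TruSeq kit selected poly(A) RNA or removed ribosomal RNA. DP thymocytes come from a burst of division and then mostly leave the cell cycle, so a sorted DP population holds cycling blasts and resting cells together.

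The 3′ stem-loop is shown first because it is the element that sets replication-dependent histone mRNAs apart. A search for a perfect stem of 6 base pairs beginning with GG around a loop of 4 bases, within 150 bases after the stop codon of GENCODE M21 coding transcripts, found it in 7 of the 9 genes. It was found in 36 of the 55 other annotated clustered histone genes with a coding model and in 138 of 21901 protein-coding genes (0.63%) in all. No match was found by these terms for Hist1h2bc and Hist2h2be. The sequences below run 5′ to 3′ along the mRNA strand, with the stem-loop in capitals and 5 bases on each side, on GRCm38 (mm10), all in the 3′ untranslated region.
Hist1h4i, chr13:22040961-22040986, minus strand: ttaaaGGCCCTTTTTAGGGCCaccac
Hist1h4d, chr13:23581945-23581970, plus strand: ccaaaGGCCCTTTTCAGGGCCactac
Hist3h2ba, chr11:58949344-58949369, plus strand: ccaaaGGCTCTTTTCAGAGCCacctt
Hist3h2a, chr11:58955167-58955192, plus strand: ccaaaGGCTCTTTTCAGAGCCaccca
Hist1h1c, chr13:23739507-23739532, plus strand: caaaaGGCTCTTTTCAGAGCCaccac
Hist1h2be, chr13:23585526-23585551, minus strand: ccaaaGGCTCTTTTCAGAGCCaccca
Hist1h2bj, chr13:22043633-22043658, plus strand: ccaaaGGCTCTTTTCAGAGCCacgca
The H1, H2A and H2B genes of this group share the stem-loop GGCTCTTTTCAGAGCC, which 23 annotated clustered genes carry. Hist1h4d carries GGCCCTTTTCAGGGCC, as 7 annotated clustered genes do. Hist1h4i carries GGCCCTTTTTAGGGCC, found in 2 annotated clustered genes, of which the other is Hist2h4.

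Most of these genes have an annotated end far past the stem-loop. The transcript model runs on for 1861 bases after it in Hist1h2be, 1643 in Hist3h2a, 840 in Hist1h1c, 770 in Hist1h4d, 330 in Hist1h4i and 169 in Hist3h2ba. Hist1h2bj is the exception among these models, with 23 bases after the stem-loop. Each model here is the longest coding transcript of the gene in GENCODE M21, which can differ from the model that was counted. For Hist1h4d it has 1138 bases, whereas the counted model has 393 and ends at base 23581990, with the stem-loop ending at 23581965. In the counted model Hist1h4d thus also ends close after the stem-loop. The poly(A) signal AATAAA or ATTAAA lay within the last 40 bases of the model in 6 of the 9 genes (Hist1h1c, Hist1h2be, Hist1h4i, Hist2h2be, Hist3h2a and Hist3h2ba), against 11 of the 55 other clustered genes with a coding model. Among all protein-coding genes the share was 70%.

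Uqcrfs1 itself checked the labels. It stood at 15.6 and 18.6 CPM (counts scaled to library size by the trimmed mean of M values, TMM) in the KO libraries, against 61.4 and 57.2 CPM in the WT libraries. The groups were far apart, with a log2 change, KO over WT, of -1.80 ± 0.09 (SE, n = 2 each) and an adjusted p of 1.78e-04 by edgeR's quasi-likelihood test with Benjamini-Hochberg adjustment over 13281 genes. The libraries held 34080516 and 31728511 gene counts in KO and 32846323 and 30408863 in WT. Reads outside annotated genes were a larger share in both KO libraries, 20.6% and 19.9%, than in the WT libraries, 17.2% and 18.6%, and their part in the results below was not tested. Summed DP marker levels overlapped, at 17947 and 17841 CPM in KO and 17068 and 18257 CPM in WT. Of the 9 DP markers, 4 had a negative and 5 a positive log2 change. Cd8a and Cd8b1 were lower in both KO libraries than in either WT library, with log2 changes of -0.10 and -0.09. That is 2 of 9, against 20.1% of all tested genes. Of 8 markers of the earlier double-negative (DN) stage, 7 had a positive log2 change, with sums of 164 and 213 CPM in KO and 139 and 140 CPM in WT. An unadjusted p under 0.05 by the quasi-likelihood test was reached by 3 of the 8, against 8.4% of all tested genes. Both KO libraries lay above both WT libraries in 4 of the 8, against 20.4%, and KO replicate 2 was highest in 7. Dtx1 had the smallest p, with a log2 change of 0.98 and an adjusted p of 0.124 by the quasi-likelihood test. None of these 8 DN markers passed the quasi-likelihood test, none was at 0, and their part in the results was not tested. Mature T cell markers summed to 246 and 257 CPM in KO and 234 and 231 CPM in WT, B cell markers to 28.2 and 26.6 CPM in KO and 28.1 and 24.6 CPM in WT, and erythroid markers were at or near 0. Myeloid markers summed to 16.7 and 25.5 CPM in KO and 17.5 and 16.5 CPM in WT, with KO replicate 2 high, mainly through Lyz2.

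All 9 clustered histone genes had lower levels in both KO libraries than in either WT library, by between 11.8% and 69.2% of the WT mean. That separation is not rare in groups of 2: among all tested genes, 20.1% had both KO libraries below both WT libraries and 20.4% had them above. Summed over the 9 genes, the level was 78.7 and 77.3 CPM in KO and 103 and 98.2 CPM in WT, a ratio of 0.774. The median log2 change of the 9 was -0.48, whereas that of all tested genes was -1e-04. Over the 7 genes that reached 1 CPM in KO too, the median was -0.40 and the ratio of the sums 0.779. In RNA from a bulk population, fewer cells expressing a gene and less RNA per cell cannot be told apart.

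No single gene of the 9 passed edgeR's quasi-likelihood test at an adjusted p of 0.05, a threshold that 0.0226% of all tested genes passed in either direction and 0.0151% passed as lower in KO. At an unadjusted p under 0.05, 7 of the 9 were lower in KO, against a background of 4.01% of tested genes. Hist1h2bj was counted there, though its place in the set rests on its WT levels. With Hist1h4d and Hist1h2bj set aside, the count was 6 of 7. DESeq2 called 1 of the 9 lower (Hist1h4i), with 0.0594% of its tested genes called lower. edgeR's likelihood ratio test called 2 lower (Hist1h4i and Hist3h2ba), with 0.264% of tested genes called lower. The authors' deposited table called the same pair lower, in a table where 0.312% of genes were called lower. All 9 were read in the same 4 libraries, and Hist1h4d and Hist1h2bj entered the table through their WT levels alone, so their shared direction is not 9 independent observations. Nothing in the labels says more of the replicates than that they are separate mice.

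**Figure D1:**
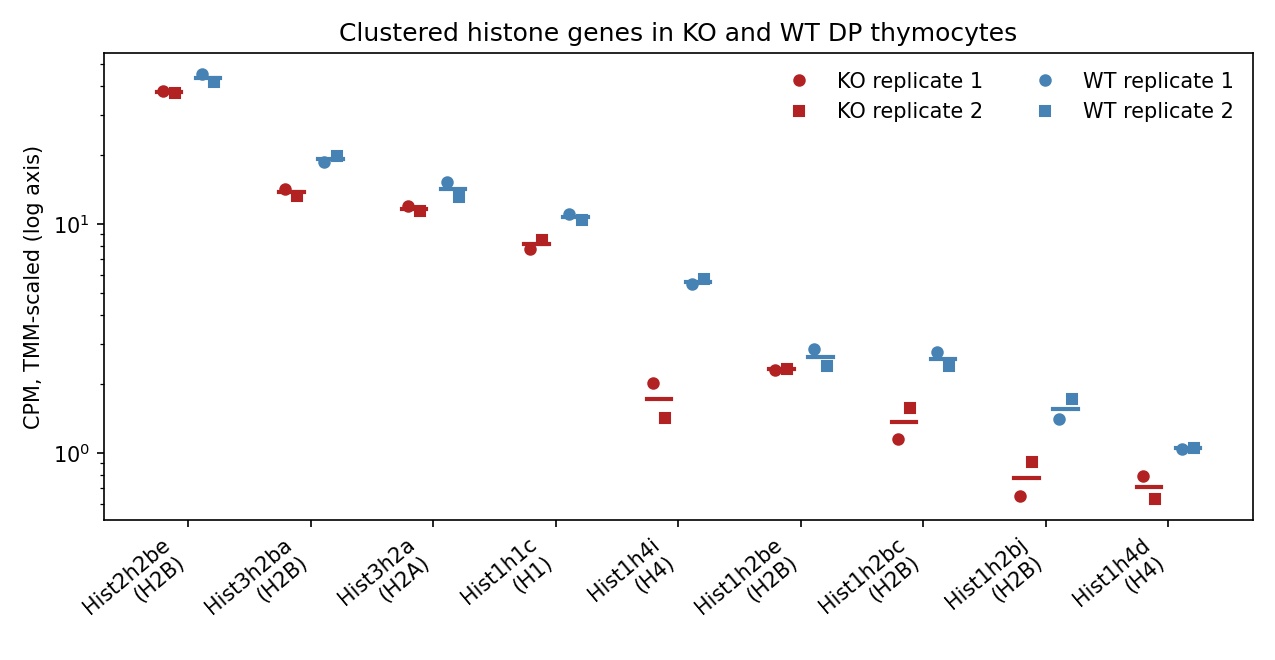
Levels of the 9 clustered histone genes in each library, in TMM-scaled CPM on a log axis, with KO in red to the left of WT in blue, circles for replicate 1, squares for replicate 2 and bars for group means. In every gene both KO points lie under both WT points, with the widest gap in Hist1h4i.

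Among the H4 genes, Hist1h4i (ENSMUSG00000060639, chromosome 13, 22040636 to 22041362, minus strand) had the largest difference of the 9. Histone H4 is the partner of H3 in the nucleosome core. Its level was 2.02 and 1.42 CPM in KO, against 5.45 and 5.73 CPM in WT, from 69 and 45 counts in KO and 179 and 174 counts in WT. The WT values were close together and each KO value was well under them. The log2 change was -1.69 ± 0.22 (SE, n = 2 each), a KO level 0.308 times that of WT, with an adjusted p of 0.0902 by edgeR's quasi-likelihood test. That p missed the threshold. It was 4.29e-04 by DESeq2, 1.43e-07 by the likelihood ratio test and 4.62e-07 in the authors' deposited table, whose log2 change was also -1.69. Leaving out each library in turn, which leaves 1 library in a group, gave log2 changes between -1.98 and -1.47.

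Hist1h4d, the other H4 gene, had 0.792 and 0.630 CPM in KO, against 1.04 and 1.05 CPM in WT. It sat at the edge of the deposited comparison, whose genes are those with at least 1 CPM in at least 2 libraries, and reached that level only in WT. Its log2 change was -0.55 ± 0.35 (SE, n = 2 each), with an adjusted p of 0.688 by the quasi-likelihood test. Just outside that edge, Hist2h4, which shares the stem-loop of Hist1h4i, had 0.645 and 0.662 CPM in KO and 0.823 and 1.25 CPM in WT. Together the 2 H4 genes of the set had a median log2 change of -1.12.

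Of the 5 H2B genes, Hist2h2be (ENSMUSG00000068854, chromosome 3, 96221119 to 96223738, plus strand) had the most counts. H2B pairs with H2A at the outer faces of the nucleosome. Hist2h2be stood at 37.9 and 37.4 CPM in KO, against 45.0 and 41.7 CPM in WT. The KO values were nearly equal and below both WT values, with a log2 change of -0.20 ± 0.07 (SE, n = 2 each) and an adjusted p of 0.526 by the quasi-likelihood test. This gene alone gave 43.0% and 42.6% of all counts from annotated clustered histone genes in KO, and 37.5% and 38.0% in WT.

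Hist3h2ba (ENSMUSG00000056895, chromosome 11, 58948920 to 58949533, plus strand) had 14.3 and 13.2 CPM in KO, against 18.6 and 19.8 CPM in WT. The groups were separate and each was tight, with a log2 change of -0.48 ± 0.10 (SE, n = 2 each). Its adjusted p was 0.302 by edgeR's quasi-likelihood test, 0.00395 by edgeR's likelihood ratio test and 0.00575 in the authors' deposited table. Per length of its model it had the highest level of the 9, at 22.3 CPM per kb in KO and 31.3 CPM per kb in WT. Hist2h2be followed at 14.4 CPM per kb in KO and 16.5 CPM per kb in WT.

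The 3 H2B genes of the Hist1 cluster had lower levels per length, such as 1.85 CPM per kb in KO and 3.50 CPM per kb in WT for Hist1h2bc. Hist1h2bc had 1.14 and 1.58 CPM in KO, against 2.74 and 2.40 CPM in WT, and a log2 change of -0.92 ± 0.27 (SE, n = 2 each) with an adjusted p of 0.508 by the quasi-likelihood test. Its KO values lay clearly below its WT values. Hist1h2bj had 0.645 and 0.914 CPM in KO, against 1.40 and 1.71 CPM in WT, and so reached 1 CPM in WT only. Its log2 change was -0.996 ± 0.34 (SE, n = 2 each), with an adjusted p of 0.528 by the quasi-likelihood test. Hist1h2be had 2.29 and 2.33 CPM in KO, against 2.83 and 2.40 CPM in WT, so that WT replicate 2 lay just above the KO libraries. Its log2 change of -0.18 ± 0.23 (SE, n = 2 each) was smaller than its error, and its adjusted p was 0.843 by the quasi-likelihood test. Leaving out WT replicate 1 gave -0.061, and leaving out WT replicate 2 gave -0.30. The H2B genes had a median log2 change of -0.48 and a summed level of 56.2 and 55.4 CPM in KO and 70.5 and 68.0 CPM in WT.

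Hist3h2a (ENSMUSG00000078851, chromosome 11, 58954685 to 58956830, plus strand) was the only H2A gene. It had 11.9 and 11.4 CPM in KO, against 15.3 and 13.1 CPM in WT, with WT replicate 1 the highest. The log2 change was -0.29 ± 0.11 (SE, n = 2 each), and -0.17 without WT replicate 1. Its adjusted p was 0.562 by the quasi-likelihood test with all 4 libraries.

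Hist1h1c (ENSMUSG00000036181, chromosome 13, 23738808 to 23740367, plus strand), which encodes a somatic linker histone that binds DNA between nucleosomes, was the only H1 gene. It had 7.77 and 8.48 CPM in KO, against 11.1 and 10.3 CPM in WT. Both KO libraries lay below both WT libraries, with a log2 change of -0.40 ± 0.12 (SE, n = 2 each) and an adjusted p of 0.508 by the quasi-likelihood test.

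By cluster, the 6 Hist1 genes had a median log2 change of -0.74. They include Hist1h4d and Hist1h2bj, which are in the set through their WT levels alone. The summed level of the 6 was 14.7 and 15.4 CPM in KO and 24.6 and 23.6 CPM in WT. The 2 Hist3 genes had a median of -0.38, with sums of 26.2 and 24.6 CPM in KO and 33.8 and 32.9 CPM in WT. Hist2h2be was the sole gene of the Hist2 cluster. Differences between clusters and between histone types were not tested. Cluster and abundance run together in part, since the 5 genes of the set with the lowest level per length are all in Hist1. The log2 changes did not simply follow level per length. They were -0.48 in Hist3h2ba, the highest, -0.20 in Hist2h2be, the next, and -0.18 in Hist1h2be, the lowest. Without Hist1h4i the median over the other 8 genes was -0.44.

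The 6 contrast variants had log2 changes between -0.19 and 0.12. Per length they lay between 17.2 CPM per kb, for H1f0 in WT, and 227 CPM per kb, for H2afx in WT. H3.3 and H2A.Z replace the canonical histones outside S phase, H2A.X marks DNA breaks when phosphorylated, macroH2A is encoded by H2afy, and H1f0 encodes a linker histone linked to differentiation. H2afx, whose RNA exists in both a stem-loop and a polyadenylated form, had 280 and 269 CPM in KO, against 342 and 285 CPM in WT, a log2 change of -0.19 ± 0.08 (SE, n = 2 each) with an adjusted p of 0.571 by the quasi-likelihood test. WT replicate 1 stood above the other libraries, and WT replicate 2 was little above KO replicate 1. Leaving out WT replicate 1 made it -0.062, and leaving out WT replicate 2 made it -0.32.

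H3f3b, 1 of the 2 H3.3 genes, had 584 and 596 CPM in KO, against 703 and 643 CPM in WT, a log2 change of -0.19 ± 0.05 (SE, n = 2 each) with an adjusted p of 0.497 by the quasi-likelihood test. The KO libraries lay below both WT libraries. H3f3a, the other, had 126 and 127 CPM in KO, against 131 and 130 CPM in WT, a log2 change of -0.04 ± 0.05 (SE, n = 2 each). Its adjusted p was 0.817 by the quasi-likelihood test, and its difference was within its error.

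H2afy had 398 and 392 CPM in KO, against 431 and 407 CPM in WT, with a log2 change of -0.09 ± 0.05 (SE, n = 2 each) and an adjusted p of 0.660 by the quasi-likelihood test. Without WT replicate 1 that change was -0.048, and without WT replicate 2 it was -0.13. H2afz had 223 and 227 CPM in KO, against 265 and 222 CPM in WT, so that its groups overlapped and WT replicate 1 alone was high. Its log2 change was -0.11 ± 0.08 (SE, n = 2 each), with an adjusted p of 0.698 by the quasi-likelihood test, and turned to 0.02 without WT replicate 1. H1f0 had 39.6 and 46.0 CPM in KO, against 40.1 and 38.6 CPM in WT, and was the only variant with a positive log2 change, 0.12 ± 0.08 (SE, n = 2 each), with an adjusted p of 0.696 by the quasi-likelihood test. It was 0.010 without KO replicate 2 and 0.22 without KO replicate 1.

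In all, 5 of the 6 variants had a negative log2 change, against 50.1% of all tested genes, and 4 of these had groups that did not overlap, against 20.1%. The median was -0.10. None passed edgeR's quasi-likelihood test, DESeq2 or edgeR's likelihood ratio test, and 2 of 6 had an unadjusted p under 0.05 by the quasi-likelihood test, against 8.4% of tested genes. Whether the clustered genes and the variants differ in their response was not tested. Without WT replicate 1 the median was -0.54 in the clustered genes and -0.04 in the variants. The summed level of the clustered genes, as log2 KO over WT, was then -0.33, and -0.41 without WT replicate 2.

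**Figure D2:**
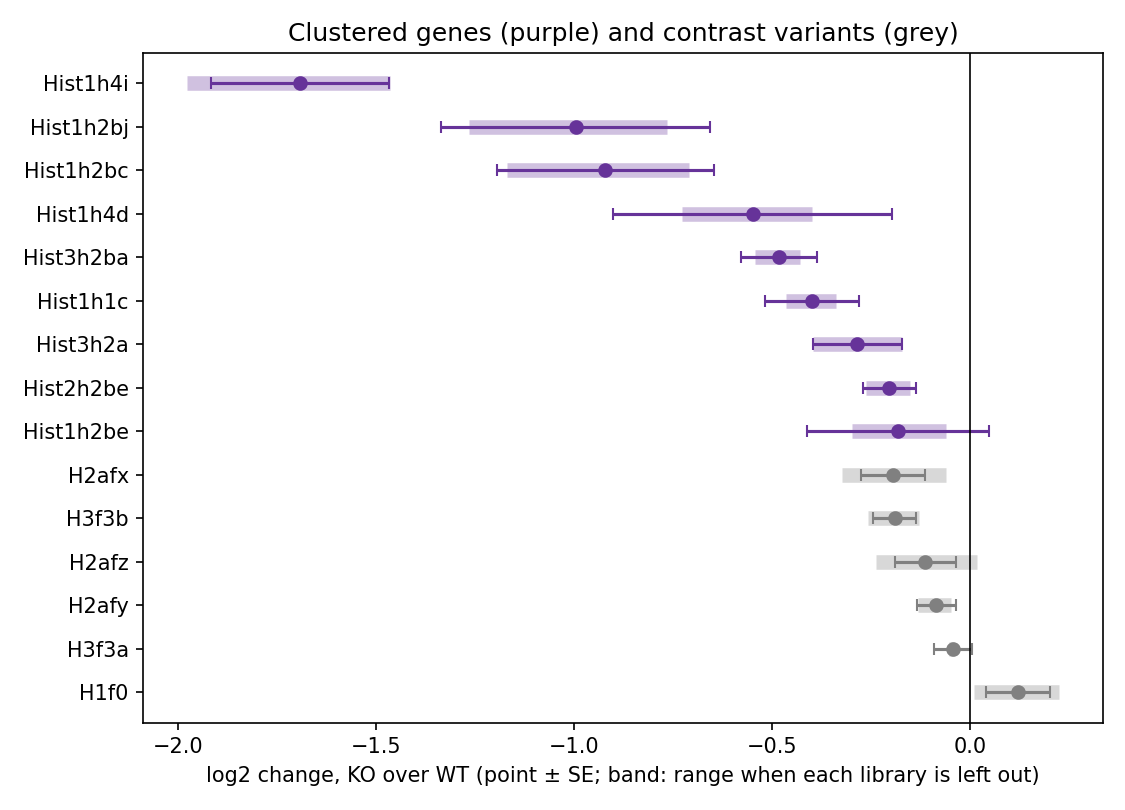
Log2 change, KO over WT, for the 9 clustered genes in purple above and the 6 contrast variants in grey below. Points are edgeR estimates with bars of 1 SE, and pale bands span the estimates when each of the 4 libraries was left out in turn. The bands of all 9 clustered genes stay below 0, which follows from their groups not overlapping. That of H2afz, whose groups overlap, reaches 0.02.

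The clusters hold many more genes than these 9. GENCODE M21 names 67 of them in the count table, of which 11 had no counts in any library, and the 9 gave 89.3% and 88.1% of all their counts in KO and 86.2% and 89.6% in WT. The other 58 summed to 9.45 and 10.4 CPM in KO and 16.6 and 11.4 CPM in WT. Here WT replicate 1 stood apart, with the highest level in 25 of the 47 genes that had counts. Of the 18 that could be tested, 17 had a negative log2 change, against 50.1% of all tested genes, with a median of -0.53. The filter before the test used all 4 libraries, and a gene could pass it through its WT counts alone, as Hist2h2ac did. For such genes, low KO values follow in part from that filter. Both KO libraries lay below both WT libraries in 7 of the 18, against 20.1% of all tested genes, and WT replicate 1 was highest in 13. WT replicate 1 was the highest library in 30.4% of all tested genes.

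None of the 18 passed the quasi-likelihood test, and 1 had an unadjusted p under 0.05. This was Hist2h2ac, an H2A gene beside Hist2h2be, with 2 and 4 counts in KO and 23 and 10 counts in WT and a log2 change of -2.46 ± 0.70 (SE, n = 2 each). It was named after its values were seen, and its adjusted p was 0.497 by the quasi-likelihood test. The H3 genes, absent from the set of 9, summed to 2.52 and 2.40 CPM in KO and 3.87 and 2.24 CPM in WT over 12 genes, with WT replicate 2 the lowest. Hist1h4h, with 11 and 17 counts in KO and 18 and 5 counts in WT, was the only tested clustered gene with a positive log2 change, 0.24.

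Clustered H2A and H2B genes often lie head to head on opposite strands. In the annotation 13 H2A and H2B pairs start within 600 bases of each other, between 173 and 306 bases apart, and 4 of them include a gene of the set. Of the 13, 6 had more H2B counts, 4 had more H2A counts and the rest had none. In the 4 pairs below, 1 gene passed the filter of the deposited comparison and its neighbour did not, so unequal counts follow from the choice. Hist2h2be had 5220 counts over the 4 libraries and Hist2h2ac, 239 bases away, had 39. Hist1h2bc had 252 counts and Hist1h2ac, 275 bases away, had 6. Hist3h2a had 1666 counts and Hist3h2bb-ps, 173 bases away, had 20. The pair of Hist1h2bj with 149 counts and Hist1h2ag with 76 was the most even of the 4.

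Near-identical copies limit what these counts can show. Reads that map to several places are left out by the counter, and they made up 23.6% and 23.2% in the KO libraries and 24.7% and 23.4% in WT, of all reads that the counter classified. Of all 50-base windows of a transcript, the share found in no other gene's annotated transcripts was at least 40.6% in the 9 genes, with a median of 77.9%, and had a median of 38.0% in the other 58. It was lowest in Hist1h2bj and complete in Hist2h2be. The windows come from the longest coding transcript of each gene where there is one, and not from the counted model. That transcript has 1138 bases against 393 counted in Hist1h4d, and 1156 against 736 in Hist1h2bc. In these genes part of the share may lie in bases that were not counted. Of the 5 clustered genes with no such window, 4 had 0 counts, and of the 11 genes with 0 counts, 7 had fewer than 10% of such windows. A count of 0 in those genes therefore says little about their expression.

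**Figure D3:**
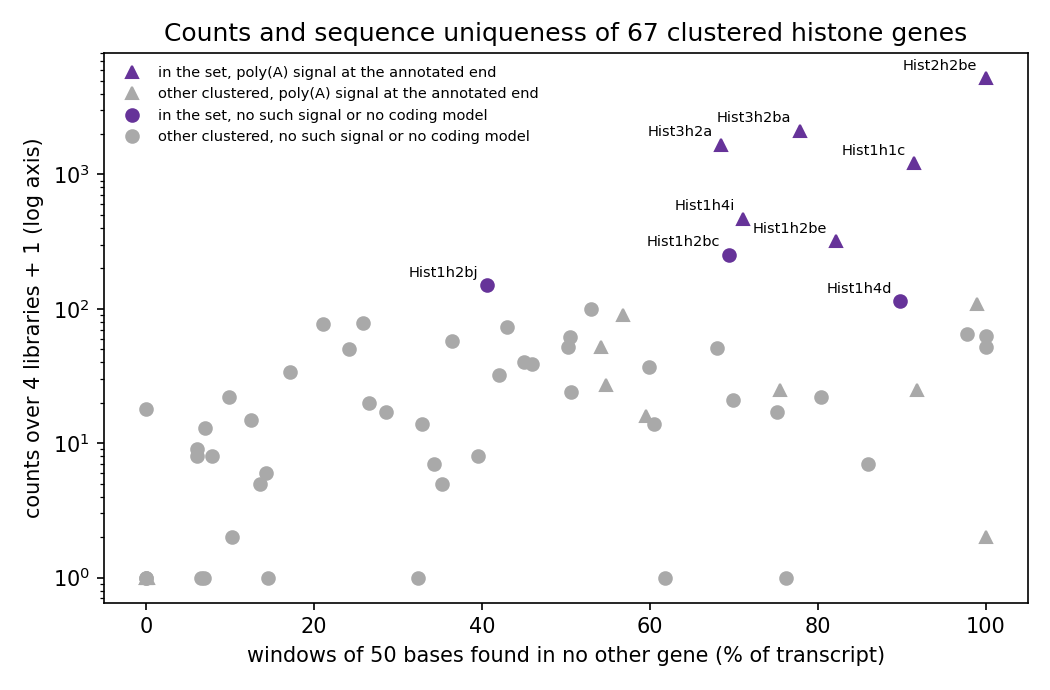
Counts summed over the 4 libraries plus 1, on a log axis, against the share of 50-base windows found in no other gene, for the 67 annotated clustered histone genes. The 9 genes of the set are in purple and named, and triangles mark a poly(A) signal at the annotated end. The 9 lie at the top, all at 40.6% or more, and 6 of them carry the signal.

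No source used here gives the strand setting or the overlap mode of the read counting, and reads from overlapping or antisense transcripts may be included. In GENCODE M21 the Trim17 locus starts at the same base as Hist3h2a and runs over it on the same strand. Hist1h2be has a long exon model of 6940 bases in the count table, which lowers its value per length to 0.333 CPM per kb in KO and 0.377 CPM per kb in WT.

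The lists of genes that make and handle histone mRNA and protein differed little. Of 20 factors of histone pre-mRNA processing, 12 had a negative and 8 a positive log2 change, with a median of -0.01. None passed the quasi-likelihood test, and 1 of the 20 had an unadjusted p under 0.05, against 8.4% of all tested genes. Lsm11, a U7-specific ring protein with the smallest p of the list, had 45.9 and 45.3 CPM in KO and 41.2 and 39.3 CPM in WT, with a log2 change of 0.18. Its partner Lsm10 had 12.6 and 12.0 CPM in KO and 13.7 and 13.8 CPM in WT, with a log2 change of -0.16. Slbp, the stem-loop binding protein, had 139 and 138 CPM in KO and 150 and 141 CPM in WT, with a log2 change of -0.07. Npat, the coactivator of histone gene transcription, had 64.4 and 67.2 CPM in KO and 67.4 and 67.1 CPM in WT, with a log2 change of -0.03. Slbp and Npat are named for their roles and not by size or p.

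Of 25 histone chaperones and assembly factors, 15 had a negative and 10 a positive log2 change, with a median of -0.03, and none passed the quasi-likelihood test. An unadjusted p under 0.05 was reached by 2 of the 25, against 8.4% of all tested genes. Atrx, a chromatin remodeller that works with Daxx, had 535 and 555 CPM in KO and 454 and 509 CPM in WT, with a log2 change of 0.18, and 0.095 without WT replicate 1. Ubn2, a partner of Hira, had 206 and 208 CPM in KO and 172 and 199 CPM in WT, with a log2 change of 0.16, and 0.053 without WT replicate 1. Daxx and Hira had log2 changes of -0.07 and -0.05, and were named after their values were seen. Among other histone variants, 4 of 9 could be tested, 3 of them with a negative log2 change, and none passed the quasi-likelihood test. H2afv, a second H2A.Z gene, had a log2 change of -0.19, or -0.053 without WT replicate 1, and H2afj one of -0.10.

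Cell cycle genes bear on the set because its canonical members are made in S phase. Of 30 S phase genes, 26 had a negative log2 change, with a median of -0.09, and their sum was 5016 and 5296 CPM in KO and 5739 and 5082 CPM in WT. WT replicate 1 was the highest library in 27 of the 30. Of 16 G2 and mitosis genes, 15 had a negative log2 change, with a median of -0.10, and all 16 were highest in WT replicate 1. Their sum was 5113 and 5245 CPM in KO and 5861 and 4927 CPM in WT. None of the 46 genes passed the quasi-likelihood test, and 3 S phase genes and no G2 and mitosis gene had an unadjusted p under 0.05, against 8.4% of all tested genes.

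Without WT replicate 1 the median log2 change was 0.03 in the S phase genes and 0.05 in the G2 and mitosis genes, and -0.54 in the 9 clustered histone genes. The summed level of the 9, as log2 KO over WT, was then -0.33, the smallest drop with any library left out. Of the 9, 5 were highest in WT replicate 1 and 4 in WT replicate 2. Hist2h2be, of the 5, went from -0.20 to -0.15, and Hist3h2ba, of the 4, from -0.48 to -0.54. The summed level of WT replicate 2 lay between the KO libraries for the S phase list and below both for the G2 and mitosis list. The part of cell cycle differences in the levels of the 9 clustered histone genes was not tested. Tyms, which makes thymidylate, had 97.5 and 100.2 CPM in KO and 124 and 109 CPM in WT, with a log2 change of -0.23, and -0.14 without WT replicate 1. Rfc3, a clamp loader subunit, had a log2 change of -0.17. Aurka and Ccnb2, which act in mitosis, had log2 changes of -0.15 and -0.19. Without WT replicate 1 these were -0.043 and -0.032, and without WT replicate 2 they were -0.26 and -0.34.

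**Figure D4:**
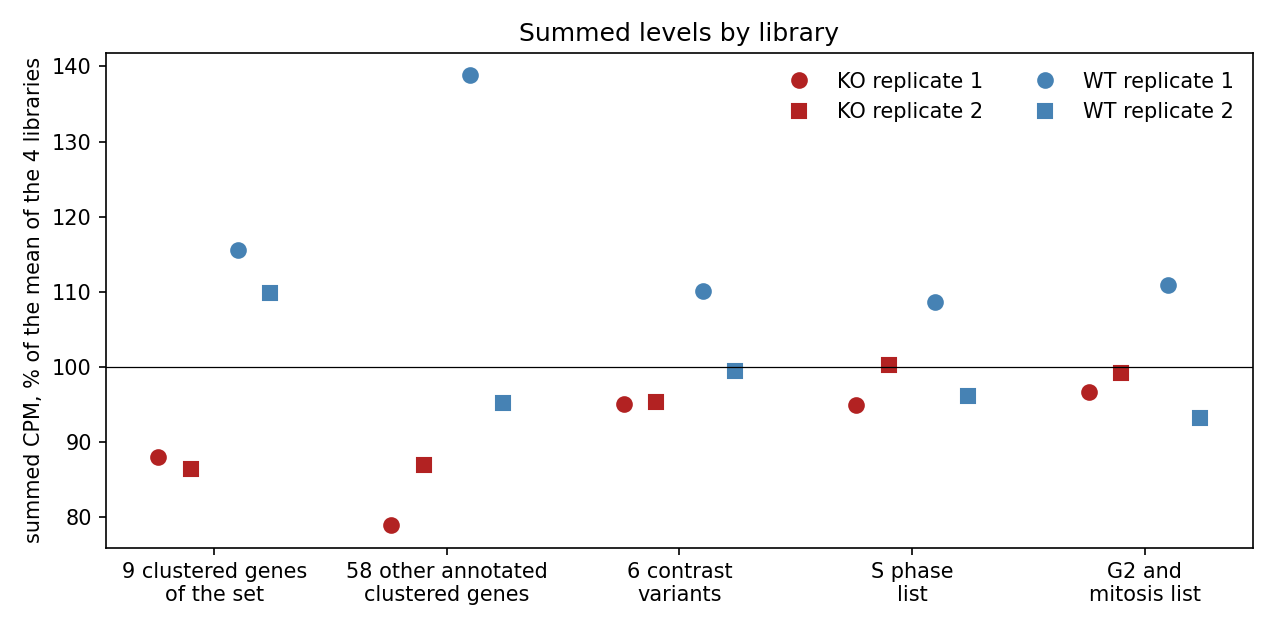
Summed CPM of 5 gene groups in each library, as a percentage of the mean of the 4 libraries, with KO in red to the left of WT in blue. The 9 clustered genes lie at 88.1% and 86.4% in KO and 116% and 110% in WT. In the S phase and the G2 and mitosis lists WT replicate 2 lies at 96.2% and 93.2%, and KO replicate 2 at 100.2% and 99.2%.

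Promoter sequence was taken from RefSeq on GRCm38.p6, as windows of 250 bases before to 50 after each start site, and was available for 7 of the 9 genes in 8 windows. The motifs counted on both strands were CCAAT, which NF-Y binds, TATAAA, a word of TATA boxes, and the octamer ATTTGCAT, which Oct1 binds in histone H2B genes. They were counted as exact words at any position in the window, without close variants. None of the motifs contains another. CCAAT was in 7 of the 8 windows, in 43 of 51 windows of other clustered genes and in 37.4% of 32851 RefSeq windows. TATAAA was in 3 of the 8, in 32 of 51 and in 13.6%, and ATTTGCAT was in 2 of the 8, in 10 of 51 and in 1.74%. A match is a description of the letters and not evidence of binding.
The windows of Hist1h4i and Hist3h2ba, the pair called lower in the authors' deposited table, are shown 5′ to 3′ in the direction of transcription, with matches to the first and second of these motifs, on either strand, in capitals.
Hist1h4i, chr13:22041313-22041612, minus strand: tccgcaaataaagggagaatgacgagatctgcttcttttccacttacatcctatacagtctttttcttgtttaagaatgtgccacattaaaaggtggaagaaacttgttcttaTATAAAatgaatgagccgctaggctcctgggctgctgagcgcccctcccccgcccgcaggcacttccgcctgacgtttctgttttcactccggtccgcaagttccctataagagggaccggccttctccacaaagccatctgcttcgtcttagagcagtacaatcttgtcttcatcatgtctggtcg
Hist3h2ba, chr11:58948661-58948960, plus strand: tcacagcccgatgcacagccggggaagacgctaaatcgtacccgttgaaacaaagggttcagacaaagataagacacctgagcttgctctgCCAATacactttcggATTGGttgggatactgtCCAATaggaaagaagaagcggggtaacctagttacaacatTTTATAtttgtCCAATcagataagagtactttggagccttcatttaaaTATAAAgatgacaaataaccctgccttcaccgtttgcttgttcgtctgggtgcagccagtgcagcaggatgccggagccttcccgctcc
The Hist1h4i window held no CCAAT on either strand and a TATAAA whose first base is at -137 from the start site. The Hist3h2ba window held 3 CCAAT motifs on the strand shown and 1 on the other, with a forward TATAAA at -39. The windows of the 2 genes with the smallest p of the set thus differ in these exact words.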

How the data were processed

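Per the submitters' processing notes, trimming used Trimmomatic 0.33, alignment to mm10 used STAR 2.5.2, gene counting used HTSeq and the comparison used edgeR. No source used here gives the RNA selection, annotation release, strand setting or counting mode. The deposited gene counts are whole numbers, unnormalised, and the 4 library files matched the series table. The authors' deposited comparison gives log2 fold changes, log2 CPM, likelihood ratio scores, p-values and adjusted p-values, with signs that run KO over WT. Its 11536 genes are exactly those with at least 1 CPM in at least 2 libraries.

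From the counts, TMM-scaled CPM and edgeR 4.0.16 quasi-likelihood tests (R 4.3.3) were computed with group as the only term, for 13281 genes kept by filterByExpr (minimum count 10, total 15), with an adjusted p threshold of 0.05. The SE was taken as the size of the log2 change over the root of its F statistic. HTSeq's classes of reads not assigned to a gene were left out. DESeq2 1.42.0, other scalings and filters, a replicate block and leaving out each library were alternatives. The procedure was tested on simulated counts. Full statistics were given for the gene of highest level in each type and cluster, those of smallest p and the variants, and of each other list for the 2 of smallest p. Members and lists were chosen with earlier results of these data known.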

Additional observations from a re-analysis of the deposited data

How the results depend on the processing

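Across 90 alternative estimates of the 9 clustered histone genes, all 90 kept a negative log2 change. In each of the 9, both KO libraries lay below both WT libraries, so leaving out a library could hardly change the sign. The other alternatives refit the same 4 libraries, so the 90 are not independent checks. With all 4 libraries edgeR's quasi-likelihood test called 3 of 13281 genes, 0 of the 9 clustered genes and 0 of the variants. DESeq2 called 22 of 20196 genes and 1 clustered gene. Of 13281 genes, the likelihood ratio test called 101, with 2 clustered genes, and the replicate block 27, with 1. No low-count filter, with more genes tested, called 191, with 2 clustered genes, 2 variants and 1 S phase gene. The same-numbered libraries of the groups deviated from their group means with a correlation of 0.075 and share only a number; under the block Hist1h4i had an adjusted p of 0.0123. DESeq2 size factors in edgeR and the filter of the deposited comparison changed no call. Leaving out each library in turn, with the lone library assumed to vary like the other group, gave 41 to 365 genes in all and 1 clustered gene (Hist1h4i) each time. Without WT replicate 2, which gave the 365, 3 variants, 8 S phase, 11 G2 and mitosis, 3 chaperone and 2 other variant genes were called, and 0 of each list without any other library. Medians then ran from -0.54 to -0.43 in the clustered genes (H1 -0.46 to -0.34, H2A -0.40 to -0.17, H2B -0.54 to -0.43, H4 -1.35 to -0.93, Hist1 -0.82 to -0.70, Hist2 -0.26 to -0.15, Hist3 -0.43 to -0.34), from -0.19 to -0.044 in the variants, -0.26 to 0.02 in other variants, -0.039 to 0.019 in processing factors, -0.064 to 0.053 in chaperones, -0.20 to 0.031 in S phase and -0.24 to 0.048 in G2 and mitosis genes. The summed level of the clustered genes ran from -0.41 to -0.33. H2afz changed sign without WT replicate 1, to 0.016. The causes were not tested. With 2 mice a group and, for Hist1h2bj and Hist1h4d, 149 and 113 counts in all, small changes were not detectable.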
